A study of Caenorhabditis elegans with 52 samples.

Results

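In adult Caenorhabditis elegans, 417 piRNAs had a level in parn-1(tm869) mutants at or above that in control animals. They were chosen from the deposited piRNA table by 2 conditions: a mean of at least 2 RPM, the reads of a piRNA scaled to the depth of the library, over the 4 control libraries, and a mean over both parn-1(tm869) libraries at least equal to it. Of 14680 piRNAs in the table, 4266 met the first condition and 417 of those, 9.77%, met both. The summed level of all piRNAs was 23609 ± 2935 RPM in parn-1(tm869) (SD, n = 2) and 83051 ± 5794 RPM in the controls (SD, n = 4). The 417 are called kept piRNAs, or members, below, and the other 3849 are called piRNAs not kept.

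piRNAs are small RNAs of the germline that are bound by the Piwi protein PRG-1 and silence foreign and unwanted transcripts. In this species each piRNA has its own short gene, mostly within a pair of clusters on chromosome IV, and TOFU-5 belongs to the factors that transcribe these genes. A precursor is longer at its 3′ end than the mature piRNA, and PARN-1, a 3′ to 5′ exonuclease, trims it while PRG-1 holds it. HENN-1 then methylates the 3′ end, which shields it from tailing and decay. PUP-1 adds uridines to RNA 3′ ends, and DISL-2 is a homolog of DIS3L2, an exonuclease that degrades uridylated RNAs.

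Small RNAs were sequenced from whole day 1 adults, with 2 libraries per group. The mutants carried parn-1(tm869), disl-2(tm5337) with parn-1(tm869), disl-2(how18) with henn-1(tm4477), henn-1(tm4477), disl-2(how27) with pup-1(how20), disl-2(tm5337) with pup-1(how50), pup-1(tm1021), disl-2(tm5337) or disl-2(how27), and the control groups were labelled as the disl-2 isogenic control and the pup-1 paired control. A time course sampled animals with gfp::aid::tofu-5(how48) and a sun-1p::mcherry::tirI transgene, with or without disl-2(how27), after 0, 2, 4, 6 and 12 hours of 4 mM auxin. All time-course animals carried the tagged TOFU-5, and the sun-1 promoter, which is active in the germline, drives the auxin receptor that degrades it. The labels give auxin at 0 hours too. Each library came from many animals pooled together. Whether the replicates were independent cultures is not given, so the tests weigh changes against a spread that may be technical only.

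The 42 libraries held between 8807176 and 52798564 reads, as recovered from the step of the RPM values. A value of 0 allows up to 3 reads, which is between 0.0568 and 0.341 RPM over the libraries and covers counting error only. The table lists piRNAs alone, so the mutated genes and the tissue were not checked against messenger RNAs, and in whole animals fewer germ cells and less RNA per cell cannot be told apart. Whether reads with an extended 3′ end were counted is not given in the sources used here. Differences between replicates exceeded counting error in each group: the chi-square over its degrees of freedom was 38.5 in henn-1(tm4477) and between 2.13 and 17.1 in the other groups. The pairs of control libraries also differed from each other: by the disl-2 isogenic control alone 418 piRNAs would be kept, 302 of them among the 417, and by the pup-1 paired control alone 424, 324 of them among the 417. Kept piRNAs with reads divided between loci numbered 126, and those named below are marked as sharing reads.

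The kept piRNAs made up the upper end of 1 continuous distribution. The ratio of the parn-1(tm869) mean to the control mean had a median of 1.499 over the kept piRNAs, with a range of 1.00 to 14.5, and a median of 0.179 over the piRNAs not kept. It reached 2 in 118 kept piRNAs, 3 in 50, 5 in 23 and 10 in 3. In 209 kept piRNAs both parn-1(tm869) libraries stood above all 4 control libraries, which the rule allows in no piRNA not kept. In 60 the ratio was under 1.1. These values chose the members and are given as a description, with no test.

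**Figure D1:**
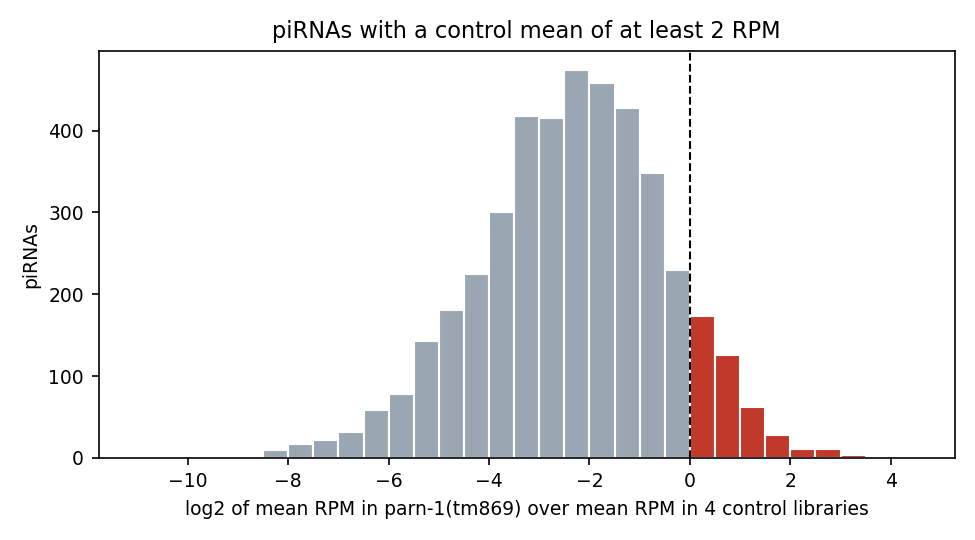
Number of piRNAs (vertical axis) by the log2 ratio of the mean RPM in parn-1(tm869) to the mean RPM in the 4 control libraries (horizontal axis, bins of 0.5), for piRNAs with a control mean of at least 2 RPM. The 417 kept piRNAs lie to the right of the dashed line at a ratio of 1, with no gap at that line, and 9 piRNAs at 0 in both parn-1(tm869) libraries are not drawn.

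The piRNAs next to the thresholds are given as a description. Just inside the ratio of 1, 21ur-3092 had 9.44 and 8.85 RPM in parn-1(tm869) and 9.80, 9.04, 9.64 and 7.82 RPM in the controls. 21ur-4257, also just inside, had 8.26 and 4.72 RPM in parn-1(tm869), but 2.45 and 2.51 RPM in the disl-2 isogenic control and 11.2 and 9.68 RPM in the pup-1 paired control. The third, 21ur-10973, which shares reads, had a ratio of 1.01. Just outside, 21ur-5297 had 99.7 and 113 RPM in parn-1(tm869), against 96.3, 113, 120.0 and 98.7 RPM in the controls. The 2 others just outside, 21ur-6540 and 21ur-5237, which share reads, each had a ratio of 0.993, and 72 piRNAs not kept had a ratio of at least 0.9. At the control mean of 2 RPM, 21ur-11386 (shares reads), 21ur-10667 and 21ur-7984 lay just inside, with ratios of 2.90, 2.04 and 1.80. 21ur-8210, just outside with a control mean of 1.99 RPM, had a ratio of 5.93, 21ur-3973 (shares reads) 1.22 and 21ur-5394 2.27.

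The most abundant kept piRNA in parn-1(tm869) was 21ur-5139, of the class that the deposited table calls Oogenic. Its level was 184 and 154 RPM in parn-1(tm869), against 106, 81.0, 115 and 111 RPM in the controls, so that the groups did not overlap. 21ur-3555, also Oogenic, had 88.8 and 88.6 RPM in parn-1(tm869) and between 55.6 and 66.7 RPM in the 4 controls. 21ur-1050 had 109 and 92.8 RPM in parn-1(tm869) and between 46.4 and 84.1 RPM in the controls. The rest of the 10 most abundant were 21ur-4359, 21ur-4358, 21ur-7753, 21ur-4264, 21ur-1752, 21ur-6478 and 21ur-1909, with parn-1(tm869) means between 50.1 and 100.1 RPM. 21ur-4358 had the largest ratio to the controls of these 7 after 21ur-7753 and 21ur-1909, with 78.0 and 70.6 RPM in parn-1(tm869) and between 21.3 and 34.4 RPM in the controls.

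The largest ratios among kept piRNAs with a control mean of at least 5 RPM began with 21ur-7753, at 8.32. This Oogenic piRNA had 70.6 and 69.4 RPM in parn-1(tm869), against 4.35 and 4.07 RPM in the disl-2 isogenic control and 12.3 and 12.9 RPM in the pup-1 paired control. 21ur-5053, Oogenic, followed with 41.4 and 32.3 RPM in parn-1(tm869) and between 5.13 and 7.77 RPM in the controls. 21ur-1909 had 54.5 and 45.8 RPM in parn-1(tm869) and between 9.83 and 14.5 RPM in the controls. The level in parn-1(tm869) stood above every control library in all 3. 21ur-598, 21ur-2164, 21ur-635, 21ur-2872, 21ur-3684, 21ur-4408 and 21ur-5319 had ratios between 3.07 and 3.89. 21ur-3684 was the Spermatogenic one among these 10, with 23.9 and 25.7 RPM in parn-1(tm869) and between 4.56 and 11.2 RPM in the controls. By contrast 21ur-1, the first named piRNA and not a kept one, had 0.632 and 0.198 RPM in parn-1(tm869) and between 7.12 and 25.0 RPM in the controls.

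The kept piRNAs were unevenly spread over the classes of the deposited table. The Oogenic class held 127 kept of 905 piRNAs, 14.0%, the piRNAs without a class 251 of 2041, 12.3%, and the Spermatogenic class 39 of 1320, 2.95%. How the classes were defined is not given in the sources used here. By level, 234 of 1586, 14.8%, were kept at a control mean of 2 to 5 RPM, 163 of 1745, 9.34%, at 5 to 20 RPM and 20 of 935, 2.14%, at 20 RPM or more. The order of the classes held within the lower levels: at 2 to 5 RPM the kept share was 24.9% of Oogenic and 5.26% of Spermatogenic piRNAs, and at 5 to 20 RPM it was 15.1% of Oogenic and 1.56% of Spermatogenic ones. These shares rest on the ratio that chose the members, and piRNAs are not replicates, so they are given without a test.

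**Figure D2:**
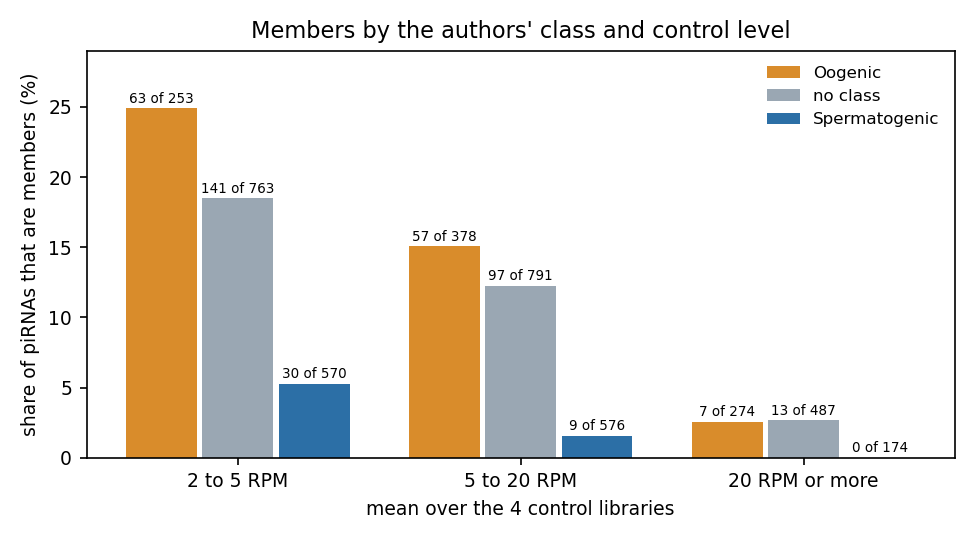
Share of piRNAs that are kept (vertical axis, percent) by mean level in the 4 control libraries (horizontal axis, RPM) and by the class of the deposited table, with the counts above each bar. The Spermatogenic bars are the lowest at each level, at 5.26%, 1.56% and 0%.

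Position showed a similar unevenness. All 417 kept piRNAs lay on chromosome IV, as did 4265 of the 4266 piRNAs with a control mean of at least 2 RPM. Cluster b, the cluster nearer the right end, held 401 kept of 3594 piRNAs, 11.2%, and cluster a, nearer the left end, 16 of 619, 2.58%. None of the 52 piRNAs elsewhere on chromosome IV was kept. The kept share was 3.51% of Spermatogenic and 15.0% of Oogenic piRNAs in cluster b, and 0.481% of Spermatogenic and 2.82% of Oogenic ones in cluster a, where 3 kept piRNAs in all carried these classes. Within annotated coding genes 142 of 1502 piRNAs, 9.45%, were kept, and outside them 275 of 2764, 9.95%, so that both shares were close to the 9.77% of all. Kept piRNAs stood next to another kept piRNA in 130 cases, 31.2% of them, where 18.3% of all 4266 piRNAs had such a neighbour. Among piRNAs without divided reads these shares were 18.9% and 17.6%. 1 pair of kept piRNAs, 21ur-4093 and 21ur-4296, had identical values in every library.

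The kept piRNAs took up 22.8% and 23.0% of all piRNA RPM in the parn-1(tm869) libraries and 3.65 ± 0.253% in the controls (SD, n = 4). Their summed level was 5397 ± 633 RPM in parn-1(tm869) (SD, n = 2) and 3041 ± 370 RPM in the controls (SD, n = 4), while the piRNAs not kept had a median of 1.63 and 1.31 RPM in the parn-1(tm869) libraries and of 6.80 to 8.43 RPM in the controls. In the parn-1 disl-2 double mutants, whose libraries the rule did not use, the share was 17.0% and 19.3%. It was 4.64% and 4.23% in disl-2(tm5337) and 3.46% and 3.54% in disl-2(how27). In the parn-1 disl-2 double mutants 296 of the 417 kept piRNAs, 71.0%, lay at or above their control mean, against 200 of the 3849 not kept, 5.20%. These shares use the control libraries of the rule and are a description.

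**Figure D3:**
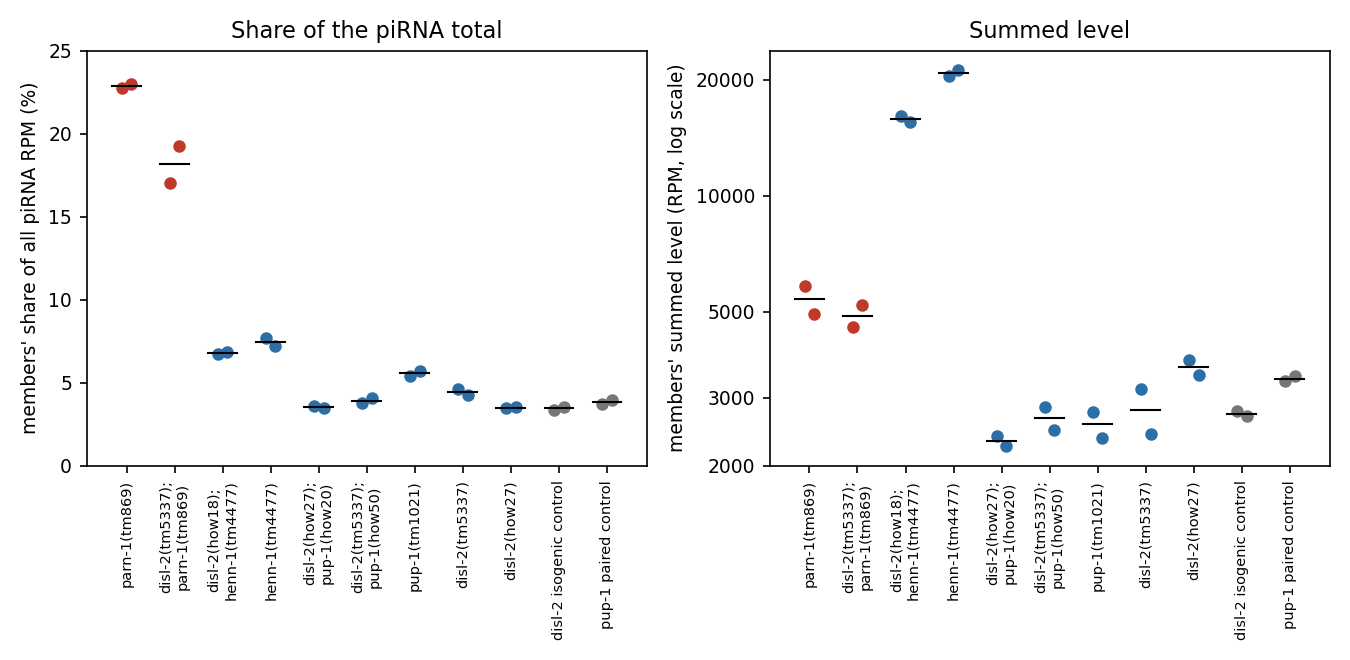
Share of all piRNA RPM taken by the 417 kept piRNAs (left, percent) and their summed level (right, RPM, log scale) in each steady-state library, with 2 points per group and a line at their mean. Both groups with parn-1(tm869), in red, lie between 17.0% and 23.0%, above every other library, while both groups with henn-1(tm4477) have the highest summed levels, from 15547 to 21226 RPM.

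The comparison of the parn-1 disl-2 double mutants with disl-2(tm5337) asked what the loss of PARN-1 does where DISL-2 is also missing. Kept piRNAs rose in most of the calls made, while piRNAs as a whole fell. Each piRNA was tested with limma on log2(RPM + 0.5) if its mean over the libraries of the fit was at least 1 RPM, and a rise or fall was called at a p under 0.05 after Benjamini-Hochberg adjustment over all piRNAs tested. Of the 417 kept piRNAs 210 rose, where 16.9% of all 5283 piRNAs tested rose, and 24 fell, where 52.1% of all fell. A further 182 did not pass the test and 1 was below the filter. The kept piRNAs that passed the filter through 1 group alone numbered 15, and without them 198 rose and 24 fell. The median log2 change was 0.75 over the kept piRNAs and -0.84 over all tested. Of the 3620 piRNAs not kept that were tested, 188 rose and 2474 fell. The 24 kept piRNAs that fell became 8 without replicate 1 of disl-2(tm5337) and 9 without replicate 1 of the double mutants, and the 210 that rose became 139 without replicate 2 of the double mutants. With the libraries scaled to the same median, the median change of all piRNAs was -0.15 in place of -0.84, and 313 kept piRNAs rose and 3 fell. That scaling moved all piRNAs up together. The share of all piRNAs called after it is not given here, so 313 and 3 are not set against the shares above. The spread rested wholly on pooling over piRNAs, since the fit gave infinite prior degrees of freedom beside 2 residual ones.

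**Figure D4:**
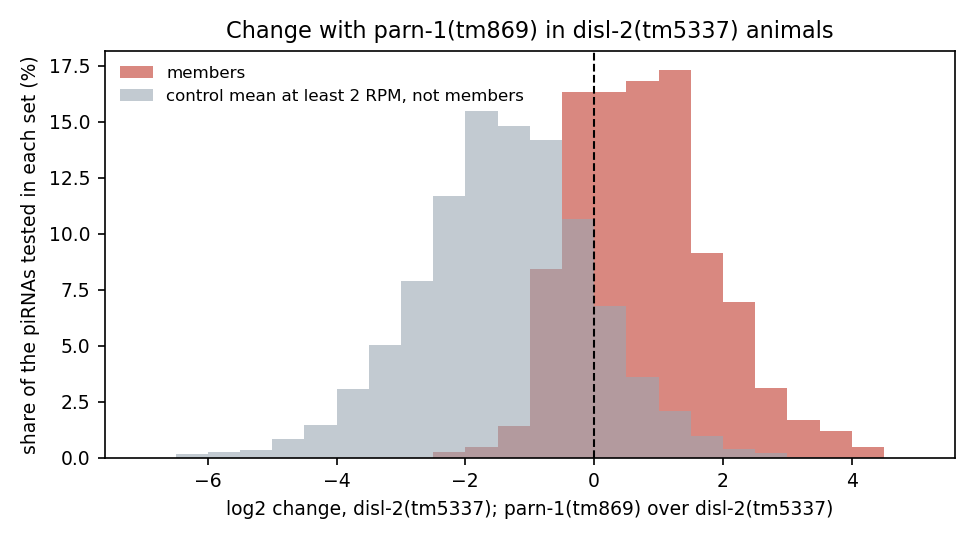
Share of the piRNAs tested in each set (vertical axis, percent) by log2 change in the parn-1 disl-2 double mutants over disl-2(tm5337) (horizontal axis, bins of 0.5). The 416 kept piRNAs tested, in red, centre on a median of 0.75 and the 3620 tested piRNAs not kept, in grey, on -1.38.

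The largest rises were those of 21ur-8923, 21ur-3100 and 21ur-7753. 21ur-8923 had 45.4 and 36.4 RPM in the parn-1 disl-2 double mutants and 1.76 and 1.06 RPM in disl-2(tm5337), a log2 change of 4.45 ± 0.35 (SE, limma adjusted p = 7.92e-35). The very small p rests on the pooled spread. 21ur-3100, a Spermatogenic piRNA, had 14.2 and 11.998 RPM in the double mutants and 0.363 and 0.121 RPM in disl-2(tm5337), so that it passed the filter through the double mutants alone. 21ur-7753 had 54.7 and 63.6 RPM in the double mutants and 4.06 and 3.03 RPM in disl-2(tm5337), a log2 change of 3.89. In these 3 piRNAs the groups were far apart in every library.

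The 3 most abundant members in parn-1(tm869) did not rise here. 21ur-5139 had 80.6 and 51.6 RPM in the double mutants and 81.0 and 66.2 RPM in disl-2(tm5337), with a log2 change of -0.18 ± 0.22 (SE, limma adjusted p = 0.467). Its groups overlapped, and its change was 0.649 with the libraries scaled to the same median, 0.138 without replicate 2 of the double mutants and -0.50 without replicate 1 of them, where it passed the test. 21ur-1050 had 60.7 and 68.9 RPM in the double mutants and 88.3 and 73.6 RPM in disl-2(tm5337), and its change of -0.32 did not pass the test. 21ur-4359 fell, with 53.6 and 78.8 RPM in the double mutants and 123 and 112 RPM in disl-2(tm5337) (log2 change -0.84 ± 0.21 SE, limma adjusted p = 9.63e-05). The other 7 of the 10 most abundant rose, by log2 changes between 0.79 for 21ur-3555 and 3.89 for 21ur-7753. All 10 piRNAs of the largest parn-1(tm869) ratios rose in the double mutants, from 0.75 for 21ur-4408 (limma adjusted p = 0.0397) to 3.89, in libraries the ratio did not use. The groups of 21ur-4408 overlapped, with 8.37 and 22.8 RPM in the double mutants and 9.51 and 6.79 RPM in disl-2(tm5337). Its change was 0.055 without replicate 2 of the double mutants and 0.522 without replicate 2 of disl-2(tm5337), and it passed the test in neither.

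The largest falls were those of 21ur-3311, 21ur-4953 and 21ur-4985. 21ur-3311 had 5.18 and 7.86 RPM in the double mutants and 31.8 and 27.9 RPM in disl-2(tm5337), a log2 change of -2.14 ± 0.32 (SE, limma adjusted p = 2.04e-10). In parn-1(tm869) alone it had 21.3 and 16.9 RPM, and the controls had between 12.6 and 20.4 RPM. 21ur-4953, Oogenic, had 2.27 and 3.49 RPM in the double mutants and 11.2 and 10.4 RPM in disl-2(tm5337). 21ur-4985 had 19.5 and 9.93 RPM in the double mutants and 49.5 and 34.2 RPM in disl-2(tm5337). Its 4 control libraries held between 5.26 and 9.11 RPM, so that disl-2(tm5337) stood above them in both libraries.

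Among the classes, 55 of 126 Oogenic kept piRNAs rose and 7 fell, against 137 rises and 587 falls among all 1047 Oogenic piRNAs tested. Of the 39 Spermatogenic kept piRNAs 25 rose and none fell by limma at the adjusted threshold, where 26 had an unadjusted p under 0.05, against 205 rises and 912 falls among all 1621 Spermatogenic ones tested. The kept piRNAs without a class gave 130 rises and 17 falls of 251, against 551 rises and 1256 falls among all 2615 without a class. In cluster a, 12 of the 16 kept piRNAs rose, against 145 rises and 390 falls among all 795 piRNAs tested there. The median change of the kept piRNAs was above 0 in each of these lists, and that of all piRNAs tested was below 0 in each.

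The TOFU-5 time course asked how fast piRNAs disappear once their transcription is cut. Most calls among the kept piRNAs were declines. Over all levels and classes together, the share called was smaller than among all piRNAs, and the half-life at the median slope was longer. A mean of at least 1 RPM was reached by 340 of the 417, and 77 were not tested. The slopes start from levels below those of the controls. At 0 hours all piRNAs summed to a mean of 48624.5 RPM without disl-2(how27) and 38422.6 RPM with it, against 83051 RPM in the controls. The cause of this was not tested. With disl-2(how27), 171 of the 340 kept piRNAs had a negative slope of log2 level on hours of auxin, where 62.7% of all 4112 piRNAs tested did, and 2 had a positive one, where 0.195% of all did. The half-life at the median slope was 16.3 hours over the kept piRNAs and 13.9 hours over all tested. Split by mean level over the time course, it was, over the kept piRNAs and over all, 14.6 against 15.2 hours at 1 to 2 RPM, 17.95 against 13.7 hours at 2 to 5 RPM and 15.3 against 13.03 hours at 5 RPM or more, so that the order was the other way at the lowest level. The share with a negative slope was also larger there, at 54.55% of the kept piRNAs and 50.98% of all. In cluster a the median slope was steeper over the 9 kept piRNAs tested, at -0.084, than over all, at -0.064. Without replicate 2 of the 12 hour libraries with disl-2(how27), 87 kept piRNAs had a negative slope. A level is also relative to all other small RNAs of the library. With the libraries scaled to the same median, 2 kept piRNAs had a negative and 10 a positive slope. The median slope of all piRNAs was then 0.0003, in place of -0.072.

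In animals with normal DISL-2, 230 of the 340 had a negative slope, where 81.9% of all did, and 2 had a positive slope, where 0.195% of all did. The half-life at the median slope was 11.95 hours over the kept piRNAs and 9.56 hours over all tested. By level it was 11.9 against 10.7 hours at 1 to 2 RPM, 12.6 against 9.38 hours at 2 to 5 RPM and 11.6 against 8.62 hours at 5 RPM or more, each time longer over the kept piRNAs. By class, the median slopes of the kept and of all were closest for Spermatogenic piRNAs, at -0.122 and -0.126. They were -0.067 and -0.089 for Oogenic piRNAs and -0.083 and -0.096 without a class. With the libraries scaled to the same median 29 kept piRNAs had a negative and 67 a positive slope. The median slope of all piRNAs was then -0.005, in place of -0.105. The difference between the slopes with and without disl-2(how27) was called by limma in 0 of the 340 kept piRNAs, where 0.0% of all 4112 were called. At an unadjusted p under 0.05 there were 24 kept piRNAs and 520 of all, and limma voom on recovered reads also called 0, with 19 kept piRNAs at an unadjusted p under 0.05. The median difference was 0.02 log2 units per hour over the kept piRNAs and 0.03 over all.

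**Figure D5:**
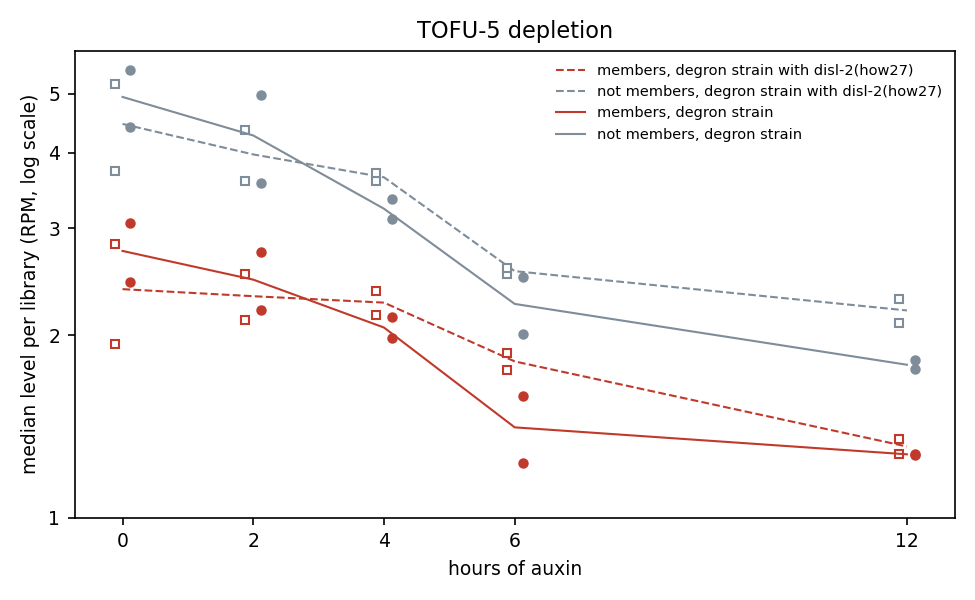
Median level per library (vertical axis, RPM, log scale) of the kept piRNAs (red) and the piRNAs not kept (grey) by hours of auxin (horizontal axis), in the degron strain with disl-2(how27) (open squares, dashed lines through the means) and without it (filled circles, solid lines). The red points run between 1.23 and 3.06 RPM and stay below the grey points of the same library, which run between 1.76 and 5.47 RPM.

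With disl-2(how27) the steepest slopes were those of 21ur-5952, 21ur-1083 and 21ur-4358, with half-lives of 6.94, 7.25 and 8.32 hours. 21ur-5952 had 4.77 and 10.6 RPM at 0 hours and 2.45 and 1.42 RPM at 12 hours. The shallowest called were those of 21ur-1567, 21ur-3506 and 21ur-1932, the last of which shares reads, with half-lives of 21.8, 20.6 and 20.0 hours. 21ur-1567 had 9.05 and 8.60 RPM at 0 hours and 6.79 and 5.40 RPM at 12 hours. Both positive slopes, 21ur-4625 and 21ur-13064, belonged to piRNAs that share reads and had almost the same values, 1.00 and 0.708 RPM at 0 hours and 1.55 and 2.17 RPM at 12 hours. None was called by limma without replicate 2 at 0 or at 12 hours of this strain, 1 was called without replicate 1 at 0 hours or without either replicate at 2 hours, and 3 without replicate 1 at 12 hours.

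The steepest decline without disl-2(how27) was that of 21ur-4514, whose libraries held 7.39 and 10.7 RPM at 0 hours, 4.76 and 5.94 RPM at 4 hours and 1.07 and 1.66 RPM at 12 hours. Its half-life was 8.46 hours with disl-2(how27) and 4.99 hours without it, and the difference between its slopes was not called (limma adjusted p = 0.367). 21ur-1267, Oogenic, had a half-life of 5.70 hours and 21ur-1697, Spermatogenic and sharing reads, one of 5.73 hours. Among those called, 21ur-5338 and 21ur-5934 declined most slowly, together with 21ur-6453, which shares reads. 21ur-5338 had 12.002 and 11.1 RPM at 0 hours and 7.62 and 7.15 RPM at 12 hours, a half-life of 17.3 hours. 21ur-4895, which shares reads, went the other way, with 16.5 and 13.7 RPM at 0 hours and 23.4 and 28.4 RPM at 12 hours. The second positive slope was that of 21ur-51, with 2.45 and 2.15 RPM at 0 hours and 4.10 and 3.25 RPM at 12 hours. Without replicate 1 of the 12 hour libraries of this strain, 1 of these 2 positive slopes was called. The slope of the most abundant kept piRNA, 21ur-5139, did not pass the test with disl-2(how27) (limma adjusted p = 0.0815), and its half-life without disl-2(how27) was 11.3 hours.

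In henn-1(tm4477) mutants, which lack the 3′ end methylation, the kept piRNAs were high. Their share of all piRNA RPM was 6.73% and 6.83% in the henn-1 disl-2 double mutants and 7.70% and 7.20% in henn-1(tm4477), against the 3.65% of the controls. The median ratio to the control mean was 5.67 in henn-1(tm4477) for the kept piRNAs and 2.52 for those not kept, and 384 of the 417 and 2360 of the 3849 reached a ratio of 2. These ratios use the controls of the rule and are not tested. 21ur-5139 had 367 and 326 RPM in the double mutants and 1191 and 954 RPM in henn-1(tm4477), and 21ur-1, not kept, had 111 and 125 RPM in the double mutants and 148 and 67.7 RPM in henn-1(tm4477).

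The comparison of the henn-1 disl-2 double mutants with henn-1(tm4477) asked what DISL-2 does to piRNAs without methylation. Of the 417 kept piRNAs 42 rose, where 17.7% of all 8769 piRNAs tested rose, and 70 fell, where 9.99% of all fell. The median log2 change was -0.12 over the kept piRNAs and 0.12 over all tested. These counts turned on each of the 4 libraries: without replicate 1 of henn-1(tm4477) 128 rose and 157 fell, without replicate 2 of it 76 rose and 136 fell, without replicate 1 of the double mutants 16 rose and 17 fell, and without replicate 2 of them 13 rose and 12 fell. Scaling the libraries to the same median took 0.22 off the median change of all piRNAs, and 31 rose and 108 fell. In cluster a 10 of the 16 kept piRNAs rose and none fell by limma, with 11 at an unadjusted p under 0.05, against 627 rises and 8 falls among all 1377 piRNAs tested there.

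The rises in the henn-1 disl-2 double mutants were led by 21ur-889, 21ur-8500 and 21ur-6478. 21ur-889 had 22.5 and 25.1 RPM in the double mutants and 5.20 and 1.33 RPM in henn-1(tm4477), a log2 change of 2.91 ± 0.49 (SE, limma adjusted p = 0.0128). 21ur-6478 had 103 and 127 RPM in the double mutants and 35.8 and 12.5 RPM in henn-1(tm4477). The falls were led by 21ur-3904, which shares reads, 21ur-3179 and 21ur-643. The Oogenic 21ur-3179 had 75.3 and 79.1 RPM in the double mutants and 301 and 583 RPM in henn-1(tm4477), a log2 change of -2.43 ± 0.35 (SE, limma adjusted p = 0.0125). The ratio between the replicates was larger in henn-1(tm4477) than in the double mutants in all 6. Among the 10 most abundant kept piRNAs 21ur-5139, 21ur-3555 and 21ur-4359 fell and 21ur-6478 rose, and the other 6 did not pass the test.

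Among the strains without PUP-1, the kept piRNAs took up 3.57% and 3.49% of all piRNA RPM in the pup-1(how20) disl-2(how27) double mutants, 3.75% and 4.09% in the pup-1(how50) disl-2(tm5337) double mutants and 5.42% and 5.68% in pup-1(tm1021). Each double mutant carries a pup-1 allele other than tm1021, so the change cannot be told apart from a difference between alleles. Against pup-1(tm1021), 39 kept piRNAs rose in pup-1(how20) disl-2(how27), where 25.4% of all 4674 piRNAs tested rose, and 114 fell, where 14.4% of all fell. In pup-1(how50) disl-2(tm5337) 38 rose, where 22.5% of all rose, and 68 fell, where 7.83% of all fell. In each 388 of the 417 were tested and 29 were below the filter. The median log2 change was -0.35 over the kept piRNAs and 0.17 over all in the first, and -0.14 and 0.26 in the second. The medians differed by class. In the first, those of the kept and of all were -0.54 and -0.33 for Oogenic piRNAs, 0.27 and 0.64 for Spermatogenic ones and -0.35 and -0.006 without a class. In the second they were -0.21 and -0.0006, 0.18 and 0.50, and -0.17 and 0.16. The Spermatogenic kept piRNAs thus had a median above 0 in both. Scaling to the same median took 0.16 off the median change of all in the second, where 34 then rose and 100 fell. Both comparisons share the pup-1(tm1021) libraries.

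These counts moved with single libraries. In pup-1(how20) disl-2(how27), 28 rose and 47 fell without replicate 1 of pup-1(tm1021), and 15 rose and 59 fell without replicate 2 of it. In pup-1(how50) disl-2(tm5337), 18 rose and 13 fell without replicate 1 of pup-1(tm1021), 6 rose and 17 fell without replicate 2 of it, 6 rose and 20 fell without replicate 1 of the double mutants and 28 rose and 39 fell without replicate 2 of them. Kept piRNAs that passed the filter with a mean under 1 RPM in either of the groups compared numbered 46 in the first comparison and 22 in the second. Without them 36 rose and 88 fell in the first, and 35 rose and 60 fell in the second.

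The largest rises were those of 21ur-5143 and 21ur-2346 in both comparisons, with 21ur-4110, an Oogenic piRNA, in the first and 21ur-8685 in the second. 21ur-5143 had 20.2 and 27.5 RPM in pup-1(how20) disl-2(how27), 21.7 and 16.3 RPM in pup-1(how50) disl-2(tm5337) and 3.96 and 4.51 RPM in pup-1(tm1021). Its log2 change was 2.35 ± 0.32 in the first (SE, limma adjusted p = 2.72e-06). 21ur-8685 had 15.6 and 14.7 RPM in pup-1(how50) disl-2(tm5337) and 5.36 and 4.22 RPM in pup-1(tm1021). The largest falls were those of 21ur-4350, 21ur-1438 and 21ur-9780 in both, the last of which shares reads. 21ur-1438 had 2.55 and 1.48 RPM in pup-1(how20) disl-2(how27), 2.69 and 1.89 RPM in pup-1(how50) disl-2(tm5337) and 13.5 and 11.4 RPM in pup-1(tm1021). In 21ur-5143 and 21ur-1438 neither double mutant overlapped with pup-1(tm1021).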

How the data were processed

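The authors deposited 1 table of piRNA levels, used here as RPM: its name states a normalization for depth, and its values are steps of 1 read divided by 12. Small RNAs were treated with the phosphatase PIR-1 before ligation, per the labels' protocols, and Trim Galore and Bowtie stand in the submitters' processing notes. The genome build and versions are not given in the sources used here. Between 85.8% and 88.2% of the values per library were whole reads within 0.01 read, so no count test was run. Of 14681 entries, 1 named the same piRNA as another, and they were merged by taking the larger value in each library. Classes came from the deposited table, and positions and neighbours from the gene table, matched for all 14680 piRNAs. The clusters were fixed windows of position on chromosome IV set for this report, and the counts by cluster depend on those bounds. No piRNA sequence was analysed here.

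limma 3.58.1 in R 4.3.3 was fitted with a trended prior to log2(RPM + 0.5), which understates changes of low piRNAs, for means of at least 1 RPM, with Benjamini-Hochberg adjustment over all tested and a threshold of 0.05. The scripts were tested on simulated data with the same spread in every group, which does not cover the unequal replicate spread of the real groups. Changes against the controls or parn-1(tm869) alone were not tested, since the rule used those libraries. The pup-1 strains shared 1 fit, as did the 20 time-course libraries. Half-lives were taken as -1 over the slope.

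Named piRNAs are the 10 highest in parn-1(tm869), the 10 of highest ratio with a control mean of at least 5 RPM, 3 on each side of both thresholds, the 3 largest changes each way per test among those called with a mean of at least 5 RPM and, outside the time course, libraries that do not overlap, and 21ur-1. The positive slopes were named after their values were seen. Members, lists, tests and naming rule were chosen with earlier results of these data known. Alternatives were other thresholds of the rule, a pseudocount of 0.1 or 2, other filters, scaling to the same median, voom on recovered reads, a replicate block, 1 fit over all steady-state libraries, piRNAs without divided reads and leaving out each library. 10 further samples of the series were not analysed here.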

Additional observations from a re-analysis of the deposited data

Results flagged for a closer look

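21ur-8923 had calls in opposite directions in strains without DISL-2, in different backgrounds. Its log2 change was 1.80 in the henn-1 disl-2 double mutants over henn-1(tm4477), with 39.3 and 36.1 RPM in the double mutants and 18.4 and 5.87 RPM in henn-1(tm4477), and it was higher in both double mutant libraries. It was -1.38 in pup-1(how20) disl-2(how27) over pup-1(tm1021), with 0.313 and 0.553 RPM in the double mutants and 1.93 and 1.90 RPM in pup-1(tm1021), and lower in both. Its mean over the pup-1 libraries passed the filter of 1 RPM through pup-1(tm1021) alone, where it was high. In pup-1(how50) disl-2(tm5337) it had 1.15 and 0.579 RPM, and its change of -0.85 over pup-1(tm1021) did not pass the test (limma adjusted p = 0.051). The difference between the called changes was not tested, and the alleles of disl-2 and of pup-1 differ between the strains.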

How the results depend on the processing

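The number of kept piRNAs was 669 with a control mean of at least 1 RPM, 183 with at least 5 RPM and 1695 with libraries rescaled to the same piRNA total, and 359 to 482 with 1 library left out. In the parn-1 disl-2 double mutants, without a filter 107 rose and 3 fell. At 5 RPM or more 13 of 243 tested fell, and with equal medians 3 fell. With 1 library left out 139 to 211 rose and 8 to 30 fell. In the time course with disl-2(how27), positive slopes numbered 0 without a filter, at 5 RPM or more, by voom and among piRNAs without divided reads. With equal medians they numbered 10. Negative slopes numbered 43 of 76 tested at 5 RPM or more, and 2 with equal medians. Leaving out 1 library gave 0 to 3 positive and 87 to 184 negative slopes. Without disl-2(how27), positive and negative slopes numbered 1 and 52 of 76 tested at 5 RPM or more, beside 2 and 230 of 340 in the main fit. With equal medians they numbered 67 and 29. Of the positive slopes 1 had no divided reads, and leaving out 1 library gave 1 to 2 positive and 200 to 234 negative. The slope difference gave 0 in each setting tried. In henn-1, 0 rose and 0 fell without a filter, 108 fell with equal medians, and 67 rose in 1 fit over all libraries. Of the 291 without divided reads 46 fell, and leaving out 1 library gave 13 to 128 rises and 12 to 157 falls. In pup-1(how20) disl-2(how27), 5 rose and 6 fell without a filter. At 5 RPM or more 28 of 143 tested fell, and 23 of 269 without divided reads rose. Leaving out 1 library gave 15 to 38 rises and 47 to 136 falls. In pup-1(how50) disl-2(tm5337) 0 rose and 0 fell without a filter, and 16 of 143 tested fell at 5 RPM or more. Leaving out 1 library there gave 6 to 53 rises and 13 to 90 falls. All these counts are of kept piRNAs alone, without the share of all piRNAs called in each setting. Stricter filters and leaving out divided reads also test fewer piRNAs. Without a filter the prior degrees of freedom were 1.09 in the parn-1 disl-2 fit, 1.26 in henn-1 and 0.97 in the pup-1 strains. With the filter of 1 RPM they were infinite, 5.57 and 28.3. The cause of the moves was not tested further.

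Values of named piRNAs that passed the test were counted once for each alternative, without those that a filter removed. Of these counts, 850 kept direction and call, 63 kept direction and lost the call, and 6 reversed. Some could not reverse: leaving out a library of the other time-course genotype, or of the pup-1 double mutant not compared, does not change the estimate. The 6 were slopes with equal medians. They were 0.035 for 21ur-1567, 0.031 for 21ur-3506 and 0.031 for 21ur-1932 with disl-2(how27), and 0.055 for 21ur-6453, 0.058 for 21ur-5338 and 0.053 for 21ur-5934 without it. Of values that did not pass, 3 reversed in the parn-1 disl-2 comparison: 21ur-5139 to 0.649 and 21ur-1050 to 0.515 with equal medians, and 21ur-5139 to 0.138 without replicate 2 of the double mutants. 21ur-5139 gained the call at -0.50 without replicate 1 of them. With the replicate number as a block 220 rose and 28 fell in the parn-1 disl-2 comparison, 58 and 81 in henn-1, 35 and 115 and then 37 and 68 in the pup-1 comparisons, 170 slopes with disl-2(how27) and 228 without it were negative in the time course, and 0 slope differences were called. Deviations of same-numbered libraries correlated at 0.20 for the 1 pair of groups in the parn-1 disl-2 fit and at -0.07 in henn-1. The correlations lay between -0.33 and 0.25 in the pup-1 strains and between -0.44 and 0.45 in the time course. Whether the numbers pair the libraries is not given, and these correlations, which ran both ways, cannot decide it.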
